A study of Mus musculus with 6 samples.

Results

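Malat1, Neat1, Meg3, Rian, Kcnq1ot1, Dleu2 and Pvt1 are long noncoding RNA (lncRNA) genes, taken as a named set. All 7 were found by their mouse symbols among the 27179 genes counted in 6 liver libraries. The livers came from C57BL/6 mice, 3 of them wild type (WT) and 3 deficient in Mettl3, the methyltransferase that writes N6-methyladenosine (m6A) on RNA, and the series compared their gene expression. The sources used here do not give how Mettl3 was made deficient, in which cells, or the age and sex of the mice. Labels name livers, not animals. Each p-value rests on no more than these 6 samples, and the edgeR test also draws on the spread of other genes.

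LncRNAs are transcripts that do not serve as templates for protein, and many of them stay in the nucleus. Malat1 gathers in nuclear speckles, which store splicing factors, and Neat1 is the architectural RNA around which paraspeckles assemble. Meg3 and Rian are read from the maternal chromosome of the imprinted Dlk1-Dio3 domain, and Kcnq1ot1 from the paternal chromosome, where it silences neighbouring genes. Dleu2 is a host gene of miR-15a and miR-16, and Pvt1 lies beside the oncogene Myc. MALAT1 is a classic m6A-bearing transcript, and methylation can change how such RNAs fold, bind proteins and decay.

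The 3′ ends of Malat1 and of the long form of Neat1 are shown first, because these RNAs end without a poly(A) tail and are protected by a triple helix. In each, an A-rich tract folds back onto 2 U-rich motifs, and RNase P cuts just behind the tract. The stretches below run 5′ to 3′ as read from GENCODE M21 transcripts, with T for U, and the capitals mark the U-rich motifs and the A-rich tract. Both lie on the minus strand of mm10, Malat1 at chr19:5795982-5796072 and Neat1 at chr19:5824708-5824802.
Malat1: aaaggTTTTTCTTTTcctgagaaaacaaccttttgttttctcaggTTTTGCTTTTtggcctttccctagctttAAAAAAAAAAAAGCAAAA
Neat1: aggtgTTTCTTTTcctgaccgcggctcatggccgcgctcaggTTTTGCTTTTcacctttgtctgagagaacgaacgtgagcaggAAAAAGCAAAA
The annotated Malat1 transcript runs on for 292 bases past this element, where the small tRNA-like RNA is cut off, and that of Neat1 stops at it. The libraries were depleted of ribosomal RNA rather than selected for poly(A), so RNAs without a tail could be read.

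Of the 7 genes, Dleu2 and Malat1 fell in Mettl3-deficient livers and none rose, at an edgeR adjusted p under 0.05. Over all 14380 tested genes, 23.8% were called by this rule, 13.3% as higher and 10.5% as lower. All 7 genes passed the filter on low counts. Meg3 and Pvt1 also had groups that did not overlap, Meg3 lower and Pvt1 higher in Mettl3-deficient livers, but neither was called. Groups that do not overlap were common in these libraries, at 45.7% of tested genes. By direction, 23.9% of all tested genes were higher without overlap and 21.9% lower. The median log2 fold change of the 7 genes was -0.59, against 0.01 over all tested genes. In bulk tissue, fewer cells of a type and less RNA per cell cannot be told apart.

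Libraries held between 31960205 and 36025772 counts, and the 7 genes took 0.0401% to 0.137% of them. Malat1 and Neat1 made up 94.8% to 97.9% of those member counts in each library. Levels are CPM (counts scaled to a common library size) after TMM scaling, whose factors were 0.825 to 0.881 in WT and 1.12 to 1.25 in Mettl3-deficient libraries. With library size as the only scaling, the median over all genes was 0.49 in place of 0.01 on the log2 scale, so changes are relative to that centre. WT replicate 1 stood apart from the other WT libraries, and Y-linked genes had counts in WT replicate 1 and in Mettl3-deficient replicates 1 and 2, and 0 in the other libraries. Mettl3 itself fell from 13.2 ± 1.09 to 5.83 ± 0.836 CPM (SD, n = 3), and of 18 m6A genes 3 were higher and 1, Mettl3, lower. Hepatocyte markers summed to 150630 to 185698 CPM in WT and 49062 to 81863 CPM in Mettl3-deficient livers, and 5 of the 11 fell. Macrophage markers summed to 176 to 526 CPM in WT and 502 to 876 CPM in Mettl3-deficient livers, with 3 of 12 higher and the lowest sum in WT replicate 1. Cholangiocyte markers summed to 107 to 131 and 108 to 271 CPM, with 3 of 9 tested higher. Erythroid markers summed to 59.7 to 204 and 27.1 to 51.9 CPM, with 3 of 4 tested lower. Of 12 endothelial markers 2 fell, of 12 stellate and fibroblast markers none was called, and of 12 lymphocyte markers 1 rose and 1 fell. The part of these shifts in the lncRNA values was not tested.

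**Figure D1:**
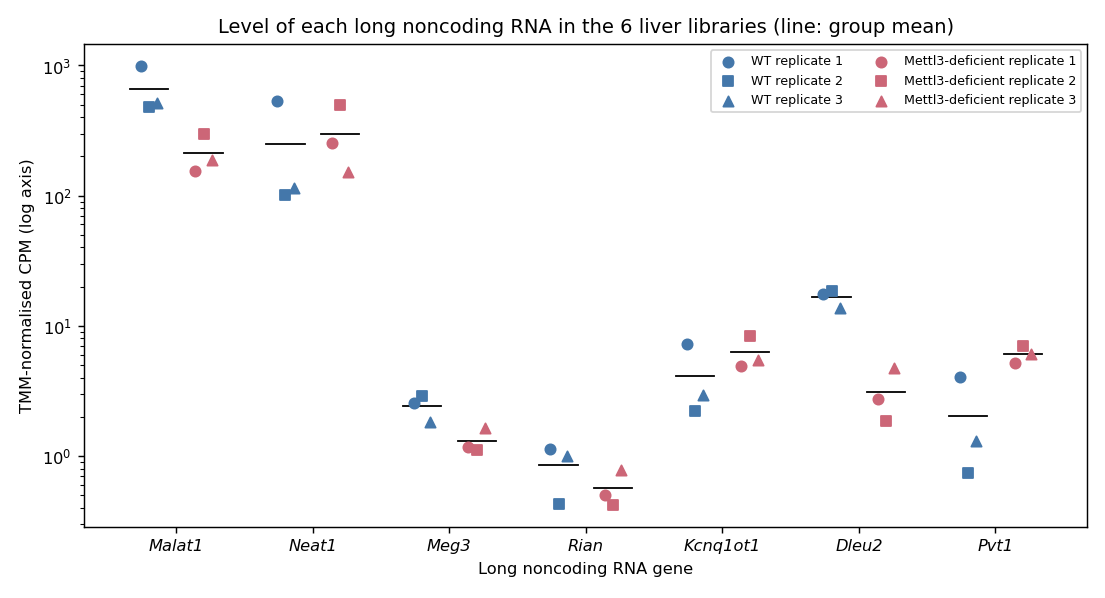
Level of each of the 7 lncRNAs in every library, as TMM-normalised CPM on a log axis, with group means as lines. The WT and Mettl3-deficient points of Dleu2, Malat1, Meg3 and Pvt1 do not overlap, and WT replicate 1 is the highest WT library for Malat1, Neat1, Rian, Kcnq1ot1 and Pvt1.

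Malat1 (Entrez 72289) lies at chr19:5795690-5802672 on the minus strand (RefSeq, GRCm38.p6, the build of mm10) and is annotated as a single exon of 6983 bases. The 3 WT libraries held 992, 478 and 513 CPM of Malat1, and the 3 Mettl3-deficient libraries held 156, 295 and 187 CPM. WT replicate 1 was the highest library, and every Mettl3-deficient library was below every WT library. The mean fell from 661 ± 287 to 213 ± 73.3 CPM (SD, n = 3), which is 3.11-fold lower. Its log2 fold change was -1.64 ± 0.38 (SE) at an edgeR adjusted p of 0.0205. Without Mettl3-deficient replicate 1, the library with the least Malat1, the log2 fold change was -1.45 and the edgeR adjusted p 0.0811, which ends the call. With 6264 to 27926 counts per library, counting error was small beside the spread between livers.

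Neat1 (Entrez 66961) lies at chr19:5824708-5845480 on the same strand, 22 kb from Malat1, and its long single-exon isoform has 20771 bases. Its gene-level counts cannot separate that isoform, which builds paraspeckles, from the short polyadenylated one that starts at the same place. Neat1 stood at 532, 101 and 115 CPM in the WT libraries and at 251, 494 and 152 CPM in the Mettl3-deficient libraries. One WT library, replicate 1, was the highest of all 6 and the other WT libraries were the lowest, so the groups overlapped. The group means were 249 ± 245 and 299 ± 176 CPM (SD, n = 3). The log2 fold change of Neat1, 0.26 ± 0.73 (SE), did not pass (edgeR adjusted p = 0.814). WT replicate 1 set this value: without it the log2 fold change was 1.47, with an edgeR adjusted p of 0.0672. The value was -0.11 without WT replicate 2, -0.08 without WT replicate 3 and -0.30 without Mettl3-deficient replicate 2, so no direction can be given for Neat1.

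A ratio of raw counts within a library needs no scaling between libraries. The ratio of Malat1 to Neat1 counts was 1.86, 4.74 and 4.46 in WT livers and 0.618, 0.598 and 1.23 in Mettl3-deficient livers. Malat1 thus had more counts than Neat1 in every WT library and fewer in Mettl3-deficient replicates 1 and 2. The mean log2 ratio differed by -2.15 between the groups. The exact permutation test over the 6 libraries, two-sided, gave p = 0.1, the smallest that 3 against 3 allows, and 0.2 after adjustment over the 4 ratios examined. Such a ratio shows unequal change between the genes and not which of them changed.

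Genes can be compared only per kilobase of annotated exon, for which exon lengths of GENCODE M21 were used. The annotation behind the counts is not given, so the counted lengths may differ. Malat1 had the highest level of the 7 in both groups, at 94.6 ± 41.1 CPM per kb in WT and 30.5 ± 10.5 in Mettl3-deficient livers (SD, n = 3). Neat1 followed at 12 ± 11.8 and 14.4 ± 8.46 CPM per kb, and the ranges of Malat1 and Neat1 overlapped in the Mettl3-deficient livers, at 22.3 to 42.3 and 7.32 to 23.8 CPM per kb. Dleu2 was the third in WT livers at 1.47 ± 0.227 CPM per kb, and Pvt1 came after it at 0.290 ± 0.253. In Mettl3-deficient livers Pvt1, at 0.869 ± 0.136, stood above Dleu2, at 0.274 ± 0.129, and their ranges overlapped in neither group. Meg3 had 0.134 ± 0.0308 CPM per kb in WT and 0.0722 ± 0.0164 in Mettl3-deficient livers, and its WT range overlapped that of Pvt1. Rian and Kcnq1ot1 were the lowest, at 0.0468 ± 0.0207 and 0.0445 ± 0.0291 CPM per kb in WT, with overlapping ranges. The length used for Kcnq1ot1, 93.09 kb, exceeds its span in RefSeq, so its order against Rian in WT is not settled. In Mettl3-deficient livers Kcnq1ot1, at 0.0672 ± 0.0200, overlapped Meg3, and Rian was at 0.0311 ± 0.0106.

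**Figure D2:**
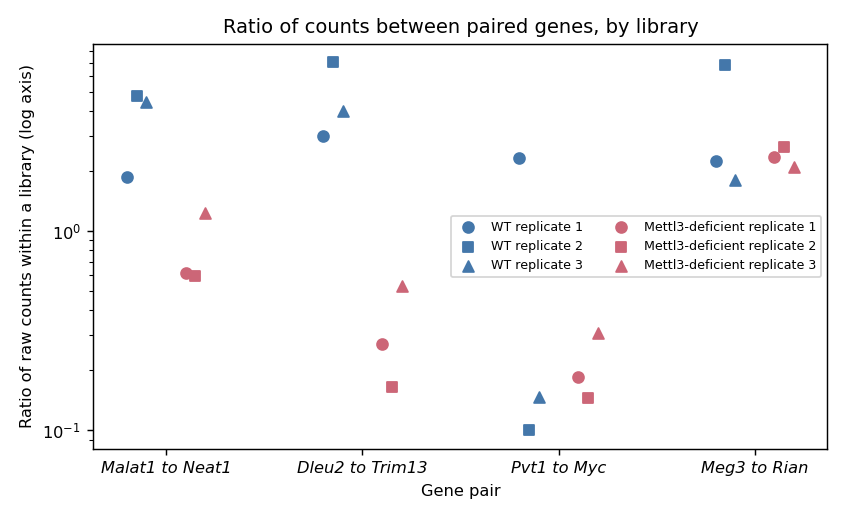
Ratio of raw counts between 4 pairs of genes within each library, on a log axis, by group and replicate. Malat1 to Neat1 and Dleu2 to Trim13 are lower in every Mettl3-deficient library than in any WT library, while Pvt1 to Myc and Meg3 to Rian overlap.

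Of 20 tested paraspeckle proteins, the partners of Neat1, 1 was higher and 2 were lower, a share below the 23.8% of all tested genes, with a median log2 fold change of -0.09. Rbmx, a nuclear RNA-binding protein, fell from 24.4 ± 3.65 to 11.6 ± 1.93 CPM (-1.07 ± 0.19, edgeR adjusted p = 0.00947). Aspscr1 fell by 0.94 in log2 terms (edgeR adjusted p = 0.00978). The core proteins Sfpq and Nono had log2 fold changes of -0.18 and 0.08, and Pspc1 had 0.91 with an edgeR adjusted p of 0.112. The calls of Rbmx and Aspscr1 held without any one library.

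Of 20 nuclear speckle proteins, the neighbours of Malat1 in the nucleus, 1 was higher and 1 lower, with a median of -0.06. The share called was below the 23.8% of all tested genes. Ddx39b, an RNA helicase of splicing and export, rose by 0.82 in log2 terms (edgeR adjusted p = 0.0174). Rbm25, a splicing regulator, fell by 0.53 (edgeR adjusted p = 0.0287). Of 25 factors of nuclear RNA decay and 3′ end processing, Exosc4 rose by 0.76 and the factors Exosc5 and Zfc3h1 fell by 0.82 and 0.85 (edgeR adjusted p = 0.0147, 0.0169 and 0.0329), with a median of 0.0027. The share called among these decay and end-processing factors was also below the 23.8% of all tested genes. Exosc4 and Exosc5 are subunits of the RNA exosome, and Zfc3h1 is part of the connection that feeds nuclear polyadenylated RNA to it. Leaving out 1 library ended each of these 5 calls: WT replicate 2 or Mettl3-deficient replicate 1 for all 5, with adjusted p up to 0.111 over all left-out libraries. With library size alone as the scaling, 8 paraspeckle, 5 speckle and 10 decay genes were called higher and 2, 0 and 0 lower, so the balance of these lists rests on the scaling. The calls of Rbm25, Exosc5 and Zfc3h1 were lost with that scaling, and that of Rbm25 also with the replicate block.

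Dleu2 (Entrez 668253) lies at chr14:61602836-61682373 on the minus strand. Its transcripts carry the hairpins of miR-15a and miR-16, which share a seed and are known to restrain cell cycle genes. The mature miRNAs are shown because they are the best-known product of the locus. They are printed 5′ to 3′ from RefSeq (GRCm38.p6), with the seed, bases 2 to 8, in capitals; miR-15a-5p is at chr14:61632075-61632096 and miR-16-5p at chr14:61631936-61631957, both on the minus strand.
miR-15a-5p: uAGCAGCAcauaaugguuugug
miR-16-5p: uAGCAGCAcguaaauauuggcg
The counts bear on the host transcript and not on these miRNAs. The gene entry of miR-15a had 0 counts in every library, and that of miR-16 had 1 count in WT replicate 1, 1 in Mettl3-deficient replicate 3 and 0 in the others.

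Dleu2 was the member with the largest fall. Its level was 17.7, 18.6 and 13.8 CPM in the WT libraries and 2.73, 1.86 and 4.71 CPM in the Mettl3-deficient libraries. Every WT library was above every Mettl3-deficient library, and the nearest values were still 13.8 and 4.71 CPM. The mean fell 5.39-fold, from 16.7 ± 2.57 to 3.10 ± 1.46 CPM (SD, n = 3). The log2 fold change of Dleu2 was -2.43 ± 0.35 (SE) at an edgeR adjusted p of 0.00494. The call was made in all 15 alternative analyses, with log2 fold changes from -2.86 to -1.98 and adjusted p from 7.91e-10 to 0.0255. Raw Dleu2 counts were 373 to 527 in WT and 84 to 186 in Mettl3-deficient libraries.

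**Figure D3:**
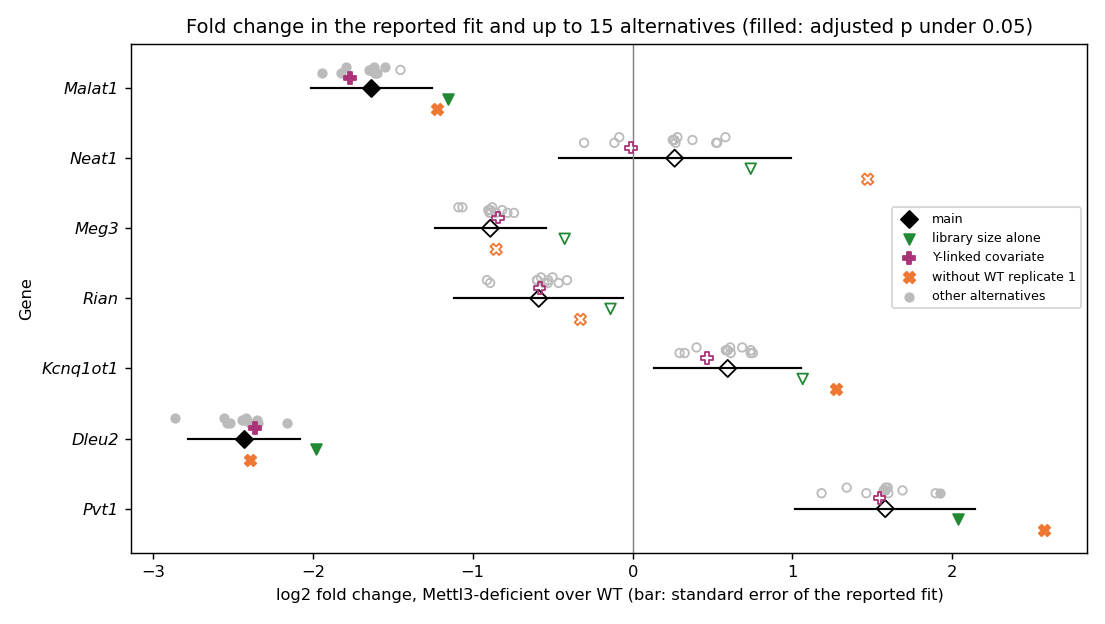
Log2 fold change of each lncRNA, Mettl3-deficient over WT, with its standard error, in the reported edgeR fit and in the alternative analyses, filled where the adjusted p is under 0.05. Dleu2 is filled throughout from -2.86 to -1.98, Malat1 in all but 1, and the points of Neat1 lie on both sides of 0.

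Of 12 tested neighbours of Dleu2, 3 were higher and 1 lower, beside 13.3% and 10.5% of all tested genes. Their median log2 fold change was 0.02. With library size alone 5 were higher and 0 lower, and 0 to 2 were higher when 1 library was left out. Trim13, a ubiquitin ligase whose gene overlaps Dleu2 on the opposite strand, had 5.86, 2.65 and 3.44 CPM in WT and 10.03, 11.3 and 8.87 CPM in Mettl3-deficient livers. Its groups did not overlap, and Trim13 rose with a log2 fold change of 1.34 ± 0.32 (SE, edgeR adjusted p = 0.0226). That call was lost without WT replicate 2 or 3 or Mettl3-deficient replicate 1 or 2, with adjusted p up to 0.0753. Kcnrg, which also overlaps Dleu2 on the opposite strand, had 23 to 52 counts in WT and 5 to 19 in Mettl3-deficient libraries, and its log2 fold change of -1.93 did not pass (edgeR adjusted p = 0.0514).

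The ratio of Dleu2 to Trim13 counts was 3.02, 7.03 and 4.01 in WT and 0.272, 0.165 and 0.531 in Mettl3-deficient livers. Dleu2 was thus the more abundant of the pair by counts in every WT library and the less abundant in every Mettl3-deficient library. The mean log2 ratio differed by -3.93 (exact permutation test, two-sided, p = 0.1, the smallest possible, and 0.2 adjusted over 4 ratios). Farther from Dleu2, Arl11 and Fam124a rose by 1.92 and 0.97 on the log2 scale and Rcbtb1 fell by 0.76 (edgeR adjusted p = 0.0429, 0.0478 and 0.0243). Arl11 had only 4 to 8 counts in WT and 23 to 37 in Mettl3-deficient libraries, and its call was lost when any one library was left out, and with limma-voom, no filter, the replicate block or the Y-linked covariate. The call of Fam124a was lost with RLE factors, limma-voom or the replicate block and without any one library but Mettl3-deficient replicate 2. That of Rcbtb1 was lost with library size alone and without WT replicate 2 or Mettl3-deficient replicate 1 or 2. Whether the authors' counting used strand, and which annotation, is not stated in the sources at hand. The exons of Dleu2 share 0 bases with those of Trim13 and Kcnrg in GENCODE M21, where the spans of Dleu2 and Trim13 share 3108 bases. In RefSeq Trim13 ends at chr14:61610287, farther into Dleu2, and exon overlap in RefSeq was not examined. Shared counting between these genes was not tested.

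Pvt1 (Entrez 19296) lies at chr15:62037986-62260215 on the plus strand, downstream of Myc, and is known as an enhancer-bearing lncRNA gene that is gained with Myc in tumours. Pvt1 stood at 4.05, 0.74 and 1.29 CPM in WT and at 5.14, 7.04 and 6.05 CPM in Mettl3-deficient livers. All 3 Mettl3-deficient libraries were above all WT libraries, of which replicate 1 was the highest. The group means were 2.03 ± 1.77 and 6.08 ± 0.951 CPM (SD, n = 3), and the log2 fold change of 1.58 ± 0.56 (SE) did not pass, with an edgeR adjusted p of 0.0773. It passed with library size alone (2.04, adjusted p = 0.0275), with DESeq2 (1.58, adjusted p = 0.0169), with limma-voom (1.93, adjusted p = 0.0342) and without WT replicate 1 (2.57, edgeR adjusted p = 0.00616). Pvt1 had few counts in some WT libraries, 114, 21 and 35, against 207, 318 and 239 in the Mettl3-deficient ones. The exact Poisson 95% interval of the 21 counts is 13 to 32.1 and covers counting error only.

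Myc, the transcription factor encoded next to Pvt1, rose in the same livers. Myc had 1.74, 7.43 and 8.80 CPM in WT and 27.7, 48.2 and 19.7 CPM in Mettl3-deficient livers, with no overlap. Its log2 fold change was 2.41 ± 0.60 (SE) at an edgeR adjusted p of 0.0303. The call of Myc was lost without WT replicate 2 or 3 or Mettl3-deficient replicate 1 or 2, with adjusted p up to 0.0935, and also with no filter on low counts and with the Y-linked covariate. In WT replicate 1 Pvt1 was the highest of the WT libraries and Myc the lowest. The ratio of Pvt1 to Myc counts was 2.33, 0.100 and 0.147 in WT and 0.186, 0.146 and 0.308 in Mettl3-deficient livers, and it overlapped between groups (exact permutation test, two-sided, p = 0.9, also after adjustment over 4 ratios). Of the 5 tested genes around Pvt1, Myc was the one called, while 4 were called higher with library size alone and 0 in the settings that end the call of Myc. In the reported fit 23.8% of all tested genes were called.

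**Figure D4:**
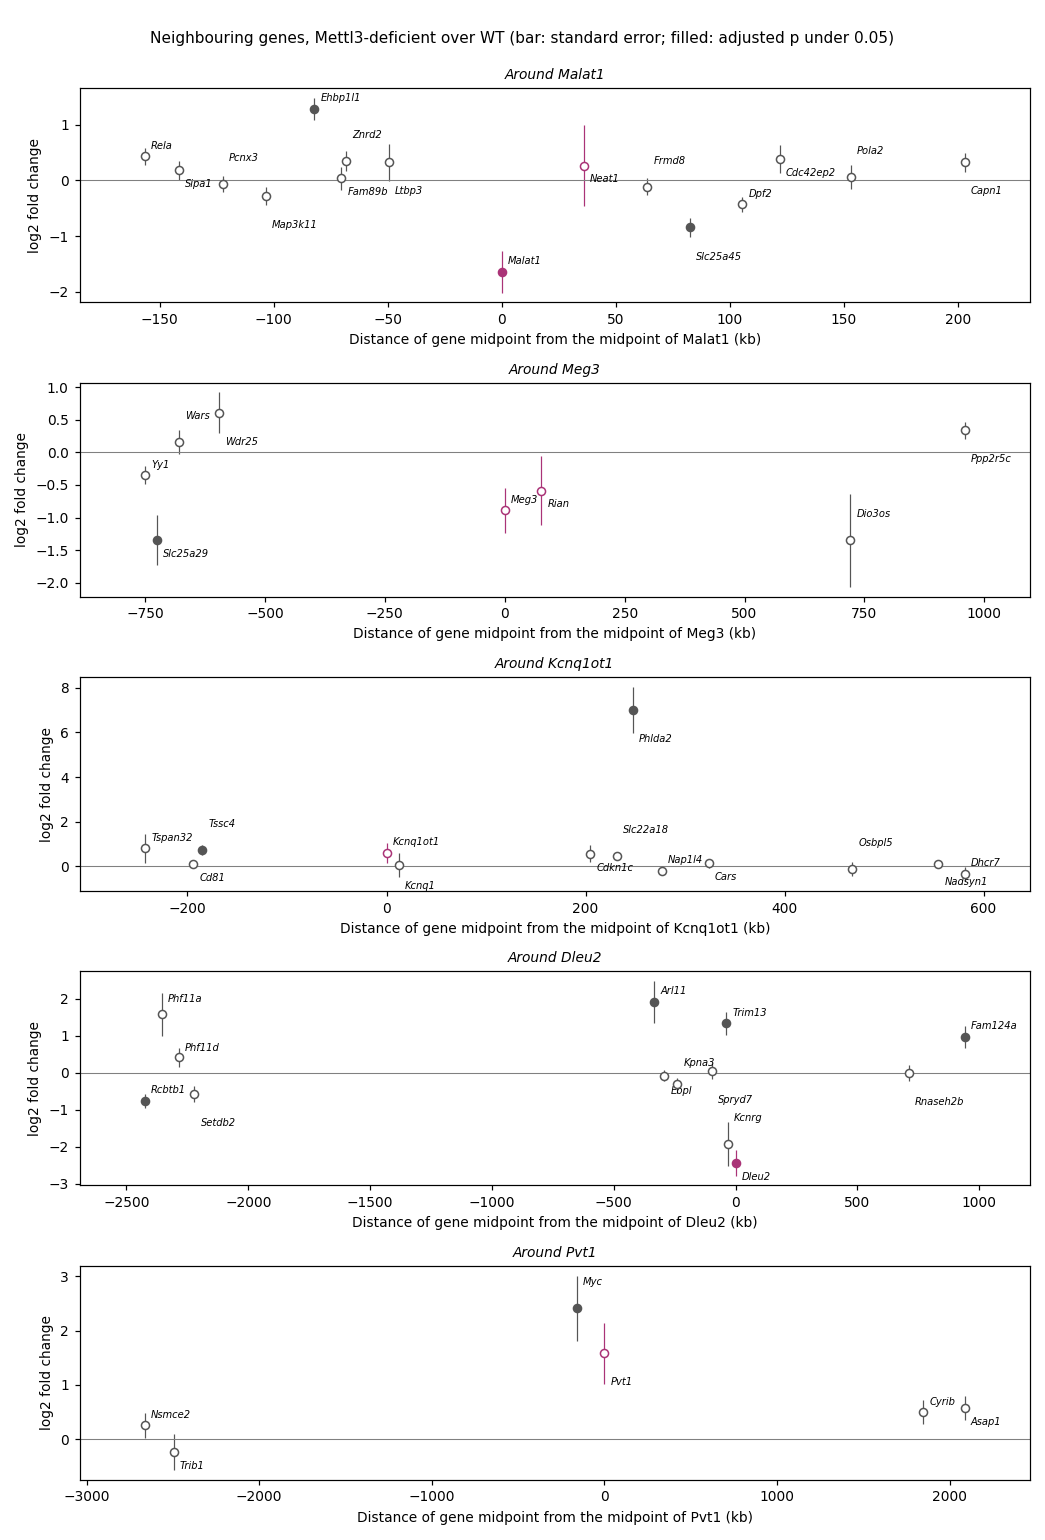
Log2 fold change with standard error of tested genes around Malat1 and Neat1, Meg3 and Rian, Kcnq1ot1, Dleu2 and Pvt1, by distance between gene midpoints in kb, with 1 tested neighbour not drawn. Filled points passed the edgeR adjusted p of 0.05 and the lncRNAs are in purple; Trim13 lies above 0 beside Dleu2, and Phlda2 stands at 7.01 near Kcnq1ot1.

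Meg3 (Entrez 17263) lies at chr12:109540996-109571729 on the plus strand and gives an RNA studied as a growth suppressor. It had few counts, 72, 82 and 49 in WT and 47, 50 and 65 in Mettl3-deficient livers. Its levels were 2.56, 2.90 and 1.81 CPM in WT and 1.17, 1.11 and 1.65 CPM in Mettl3-deficient livers. All Mettl3-deficient libraries were below all WT libraries, although WT replicate 3 and Mettl3-deficient replicate 3 were close. The log2 fold change of Meg3 was -0.89 ± 0.35 (SE) and did not pass (edgeR adjusted p = 0.0968), nor did it in any of the 15 alternatives.

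Rian (Entrez 75745), at chr12:109603945-109661716 on the same strand and downstream of Meg3, hosts small nucleolar RNAs and miRNAs. It was the least counted member, with 32, 12 and 27 counts in WT and 20, 19 and 31 in Mettl3-deficient libraries. The exact Poisson 95% interval of the 12 counts is 6.20 to 21, which covers counting error only. Levels of Rian were 1.14, 0.424 and 0.998 CPM in WT and 0.50, 0.42 and 0.79 CPM in Mettl3-deficient livers, and the groups overlapped. The log2 fold change was -0.59 ± 0.53 (SE, edgeR adjusted p = 0.439), so no difference in Rian was detected. The ratio of Meg3 to Rian counts was 2.25, 6.83 and 1.81 in WT and 2.35, 2.63 and 2.10 in Mettl3-deficient livers (exact permutation test, two-sided, p = 0.9, also after adjustment over 4 ratios).

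Counts of 4 other Dlk1-Dio3 genes, and of the listed gene Begain, were too low in these livers to be tested. Begain had 0 counts except 2 in Mettl3-deficient replicate 3. Dlk1, the paternally expressed Notch-family ligand, had 0 counts except 2 in Mettl3-deficient replicate 3, and Rtl1 had 0 in every library. Mirg, the miRNA host at the far end of the maternal transcript run, had at most 5 counts, and Dio3, a deiodinase, at most 14. Of the 6 tested genes of the list, flanking genes included, 1 fell, beside 10.5% of all tested genes. Slc25a29, a mitochondrial carrier, fell by 1.34 in log2 terms (edgeR adjusted p = 0.0393). Its call was lost with library size alone, limma-voom or the Y-linked covariate and without any one library but WT replicate 1. Dio3os, antisense to Dio3, had 15, 77 and 61 counts in WT and 18, 17 and 53 in Mettl3-deficient libraries, with a log2 fold change of -1.35 that did not pass (edgeR adjusted p = 0.199).

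Kcnq1ot1 (Entrez 63830) lies at chr7:143213111-143296547 on the minus strand, wholly inside Kcnq1 and antisense to it. It is the RNA of the imprinting control region that silences Cdkn1c, Phlda2 and Slc22a18 on the paternal chromosome. Levels of Kcnq1ot1 were 7.25, 2.23 and 2.96 CPM in WT and 4.94, 8.39 and 5.45 CPM in Mettl3-deficient livers. WT replicate 1 was the second highest library and the other WT libraries the lowest, so the groups overlapped. The log2 fold change of 0.60 ± 0.46 (SE) did not pass (edgeR adjusted p = 0.367). Without WT replicate 1 it was 1.27 and passed, with an edgeR adjusted p of 0.0354. Counts of Kcnq1ot1 ran from 63 to 379 per library. Its annotated exon shares 121 bases with exons of Kcnq1, and intronic reads of Kcnq1 would fall within it if strand was not used in counting.

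Of the 3 genes named as its targets, Phlda2 was called. Phlda2, a placental growth restrainer, had 8 counts in WT replicate 1 and 0 in the other WT libraries, against 609, 836 and 184 in the Mettl3-deficient libraries. It rose from 0.28, 0 and 0 CPM to 15.1, 18.5 and 4.66 CPM (a log2 difference of 7.01 ± 1.04 with edgeR adjusted p = 0.0065), and the size of that fold depends on how 0 counts are treated. Cdkn1c, a cell cycle inhibitor, went from 5.15 ± 2.06 to 7.59 ± 2.47 CPM, and its log2 fold change of 0.56 did not pass (edgeR adjusted p = 0.303). Slc22a18, a membrane transporter, went from 101.1 ± 12.3 to 139.9 ± 4.05 CPM with groups that did not overlap, and its log2 fold change of 0.47 did not pass (edgeR adjusted p = 0.0724). All 3 had positive values, of which only that of Phlda2 was called, and Kcnq1 had 0.06 (edgeR adjusted p = 0.943). Nap1l4, Osbpl5 and Dhcr7 had -0.21, -0.13 and -0.35, none of them called. The remaining tested genes of the domain had positive values. Tssc4, a factor of spliceosome assembly at the edge of the domain, rose by 0.72 in log2 terms (edgeR adjusted p = 0.047, lost with the Y-linked covariate and without any one library but WT replicate 1). Of the 12 tested genes of the domain, Phlda2 and Tssc4 were thus the 2 called higher, none was called lower, and the median was 0.11. Scaled by library size alone, 5 were called higher and 0 lower. Over all tested genes the reported fit called 13.3% higher and 10.5% lower.

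Around Malat1 and Neat1, 1 of 15 tested protein-coding neighbours was higher and 1 lower, with a median log2 fold change of 0.07. That share was below the 23.8% called over all tested genes. The same list had 6 higher and 0 lower with library size alone, which ends the call of Slc25a45. Ehbp1l1, a protein of membrane traffic, rose from 8.91 ± 0.776 to 21.6 ± 4.64 CPM (1.28 ± 0.20, edgeR adjusted p = 0.00621). Slc25a45, a mitochondrial carrier, fell from 32.1 ± 2.69 to 17.9 ± 2.99 CPM (-0.84 ± 0.17, edgeR adjusted p = 0.0141, and 0.0577 without WT replicate 2). Frmd8, the nearest tested protein-coding gene on the Neat1 side, had a log2 fold change of -0.11 that did not pass.

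Other imprinted genes and other lncRNAs give the setting. Of 34 tested imprinted genes from elsewhere or shared with these domains, 5 were higher and 2 lower, beside 13.3% and 10.5% of all tested genes. Their median was 0.03. With library size alone 10 were higher and 1 lower, and 2 to 6 were higher when 1 library was left out. Igf2r, the maternally expressed receptor that clears Igf2, rose from 28 ± 4.89 to 90.1 ± 19 CPM (1.68 ± 0.21, edgeR adjusted p = 0.00319), and its call held without any one library. Of 35 other named lncRNAs tested, 7 were higher and 3 lower, with a median of 0.41, beside 13.3% and 10.5% of all genes. These numbers were 17 and 1 with library size alone. When 1 library was left out 0 to 10 were higher and 2 to 5 lower, with 0 higher without Mettl3-deficient replicate 1 and 2 without WT replicate 2, WT replicate 3 or Mettl3-deficient replicate 2. Tug1, a widely expressed nuclear and cytoplasmic lncRNA, fell from 51.3 ± 2.42 to 22.8 ± 0.952 CPM (-1.17 ± 0.13, edgeR adjusted p = 0.00222). Oip5os1, the mouse Cyrano, fell by 1.0 in log2 terms (edgeR adjusted p = 0.00862), and the small nucleolar RNA hosts Snhg18 and Snhg15 rose by 1.88 and 1.92 (edgeR adjusted p = 0.0125 and 0.0166). The calls of Tug1 and Oip5os1 held without any one library, although that of Oip5os1 was lost with library size alone, that of Snhg18 was lost without Mettl3-deficient replicate 1 (adjusted p = 0.0529), and that of Snhg15 without WT replicate 2 or Mettl3-deficient replicate 1 or 2 (up to 0.06).

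**Figure D5:**
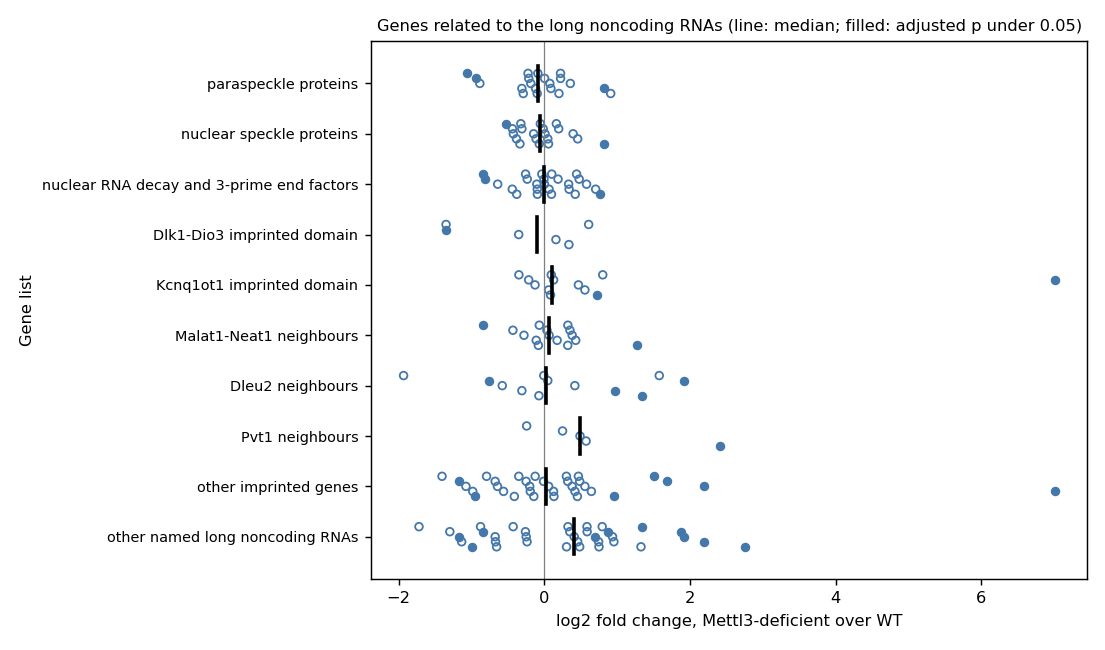
Log2 fold changes of the tested genes of 10 lists related to the lncRNAs, 1 point per gene, with the list median as a line and filled points for an edgeR adjusted p under 0.05. Medians lie between -0.09 and 0.49, and the single point at 7.01, Phlda2, is drawn in each of the lists that hold it.

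GGACT, the most typical form of the m6A consensus, was counted on the sense strand of the longest GENCODE M21 transcript of each gene. Malat1 had 9 copies in 6983 bases and Neat1 23 in 20771, which is 1.29 and 1.11 per kb. Dleu2, the member with the largest fall, had 1 copy in 4098 bases (0.244 per kb), and Rian had 2 in 8089 (0.247 per kb). Meg3 had 16 in 14548 bases (1.10 per kb), Kcnq1ot1 80 in 93092 (0.859 per kb) and Pvt1 6 in 3319 (1.81 per kb). All annotated exons together cover 11334 bases in Dleu2, 18234 in Rian, 18089 in Meg3 and 6996 in Pvt1. For these genes the exon sequence outside the longest transcript was not scanned. Over 4998 lncRNA genes with a longest transcript of at least 1 kb, the median density was 0.952 per kb, with quartiles of 0.568 and 1.56. Dleu2 and Rian thus lay below the lower quartile, Pvt1 above the upper one, and the other members between them. The 2 lncRNAs called lower, Malat1 and Dleu2, had GGACT densities on either side of the median. Methylation itself was not measured, and a relation between GGACT density and change in level was not tested.

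Likeness between profiles was taken as the root mean square difference of centred log2 CPM over the 6 libraries, among 9907 genes with a symbol and a mean of at least 5 CPM. The 3 genes nearest to Malat1 were Lmbrd2, Nbeal1 and Eme2, with differences of 0.217, 0.247 and 0.276. Nearest to Neat1 were Tmed3, Hspa5, the main chaperone of the endoplasmic reticulum, and the small heat shock protein Hspb1 (0.331, 0.381 and 0.383). Hspa5 had 1602, 599 and 545 CPM in WT and 1776, 2508 and 843 CPM in Mettl3-deficient livers, so it shared the high WT replicate 1 with Neat1. Nearest to Dleu2 were the amylase Amy1, Tmem25 and the protease inhibitor Serpina1a (0.151, 0.196 and 0.202), the last of which is a hepatocyte product with near-identical copies, so its counts are uncertain. Nearest to Pvt1 were the matricellular protein Ccn1, Serpinb9 and Plet1 (0.270, 0.282 and 0.298), and to Kcnq1ot1 Fgl2, Parp3 and Dpy19l3 (0.180, 0.197 and 0.207). Meg3 lay nearest to Prickle3, Zfp870 and Magix (0.0921, 0.0955 and 0.125), and Rian to Sap130, Mysm1 and Wrn (0.102, 0.122 and 0.123). Meg3 and Rian had under 5 CPM in every library, where the pseudocount of 0.5 CPM flattens a profile, so these matches mean little. Sap130 had a log2 fold change of -0.23 against -0.59 for Rian, and Prickle3 -0.59 against -0.89 for Meg3. Differences are smaller for genes that vary less, so they are not comparable between members.

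Values within libraries with and without Y-linked counts, 1 WT against 2 Mettl3-deficient and 2 WT against 1, carry no test. The log2 ratio was -2.14 and -1.40 for Malat1 and -2.95 and -1.78 for Dleu2, the same direction in both. For Meg3 it was -1.17 and -0.52 and for Pvt1 0.59 and 2.57. It differed in sign for Neat1 (-0.51 and 0.50), Rian (-1.31 and 0.14) and Kcnq1ot1 (-0.12 and 1.07). WT replicate 1 is the single WT library with Y-linked counts, so its own state and the Y-linked split cannot be told apart.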

How the data were processed

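The data are RNA-seq counts from 3 WT and 3 Mettl3-deficient livers. Per the labels, RNA was depleted of ribosomal RNA and made into directional libraries. The authors deposited raw counts per gene under Entrez identifiers; the submitters' processing notes name HISAT2, featureCounts and mm10. Versions, annotation and strand setting: not given in the sources used here. Of 27179 identifiers, 25275 matched a RefSeq symbol (GRCm38.p6). The test was the robust quasi-likelihood F test of edgeR 4.0.16 under R 4.3.3, two-sided, with TMM factors, the group as the only term and filterByExpr (minimum count 10, minimum total 15). A call needed a Benjamini-Hochberg p below 0.05 across 14380 genes. Replicates differed by more than sampling noise.

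The members, lists and tests were chosen with earlier results of these data known. The text names the 7 members, tested genes of the neighbourhood lists, up to 4 called genes of each other list by smallest p, Mettl3, and the 3 nearest profiles per member (pseudocount 0.5 on CPM); Sfpq, Nono, Pspc1 and the untested Dlk1-Dio3 genes were named after their values were seen. Alternatives were RLE and upper-quartile factors, library size alone, DESeq2 1.42.0, limma-voom (limma 3.58.1), no filter, a minimum of 1 CPM in 3 samples, the replicate block, a covariate for Y-linked counts over 100, and each library left out. Some genes of these lists are counted in them but not reported here.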

Additional observations from a re-analysis of the deposited data

How the results depend on the processing

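Across 15 alternatives, Dleu2 kept its call and direction, and Meg3 and Rian stayed lower and not called (Rian in the 14 that tested it). Neat1 changed sign to -0.0093 with the Y-linked covariate, and over the 6 fits that leave out a library it ran from -0.30 to 1.47, with negative values of -0.11, -0.08 and -0.30. Leaving out a library gave -1.95 to -1.22 for Malat1, 0.29 to 1.27 for Kcnq1ot1 and 1.18 to 2.57 for Pvt1. It gave 840 to 1932 genes called higher and 518 to 1582 lower, against 1906 and 1514, and 0 to 2 lncRNAs of the set higher and 1 to 2 lower. With library size alone 4810 genes were called higher and 595 lower, 89% of calls being higher against 55.7% with TMM. Pvt1 was then called at 2.04, and also by DESeq2 at 1.58 and limma-voom at 1.93, each giving 1 member called higher. The cause of these shifts was not tested. Deviations from the group means had correlations of 0.0817, -0.0127 and 0.0441 between same-numbered livers. Between differently numbered livers they were -0.109 to 0.0282. With 3 livers per group, such values cannot decide whether the numbers pair the livers. With the replicate block, 2683 genes were called, and the log2 fold changes were -1.60 for Malat1 (edgeR adjusted p = 0.0415), 0.52 for Neat1, -0.89 for Meg3, -0.53 for Rian, 0.74 for Kcnq1ot1, -2.52 for Dleu2 (0.00988) and 1.90 for Pvt1 (0.0704), which changed no call among these 7. Counts were fewest for Rian, Meg3 and, in WT livers, Pvt1.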

Other observations

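As a class, lncRNA genes had a lower median log2 fold change than protein-coding genes. This set of genes was added after seeing the data and is described with no test. Of the 479 genes that RefSeq types as lncRNA and that passed the filter, out of 2077 in the files, 24 were called higher and 66 lower by edgeR, with a median log2 fold change of -0.41. Over the 13329 tested protein-coding genes, 1857 were higher and 1406 lower, with a median of 0.03. The median of the lncRNA genes was -0.27 over 1148 genes with no filter on low counts and -0.44 over 265 genes with a minimum of 1 CPM in 3 samples. It ran from -0.61 to -0.20 when each library was left out in turn, the latter without WT replicate 1. The numbers called then ran from 6 to 26 higher and 24 to 77 lower. With library size alone the lncRNA median was 0.05 and the protein-coding median 0.50, so the sign of the class median rests on the scaling. The lncRNA median was below the protein-coding one in the reported fit and in all 15 alternatives. With library size alone 53 lncRNA genes were higher and 44 lower. By contrast, the 35 other named lncRNAs tested had a median of 0.41 in the reported fit, with 7 higher and 3 lower.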
